A study of Homo sapiens with 10 samples.

Results

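The genes described here are 53 interferon-stimulated genes, chosen by symbol as rows of 2 deposited expression tables, one for each of 2 lymphoma lines. All 53 were found, of 25275 symbols in all. OCI-LY10 and TMD8 are established human lines of diffuse large B-cell lymphoma, a tumour of B cells, and belong to its activated B-cell-like (ABC) type. The study asked how gene expression depends on the transcription factor STAT3, and its RNA-seq part holds 6 libraries, 3 for each line. In each line 1 library came from cells carrying a control shRNA, and 1 each from cells carrying STAT3 shRNA 10 or STAT3 shRNA 16. Short hairpin RNAs lower the level of the transcript they match. Doxycycline (20 ng/ml, 2 days) switched on the shRNA in every group, so the control cells received it too. The 3 OCI-LY10 columns are named after their shRNA. The 3 TMD8 columns bear no name, so they are reported by their place, as the first, the second and the third column, with no condition given to any of them and no average or test over them. Nothing states that libraries came from separate cultures. Another 4 samples of the series, STAT3 ChIP-seq after a JAK inhibitor or its solvent, are not analysed here.

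Interferons are secreted proteins, and cells release those of type I and type III on sensing viral nucleic acid. Type I and type III interferons activate the kinases JAK1 and TYK2 and, through them, the complex ISGF3, which holds STAT2 and IRF9 and binds the interferon-stimulated response element in front of many target genes. Interferon gamma acts through JAK1 and JAK2 and leads to binding at the gamma-activated site. The products of the induced genes sense viral RNA, block translation, degrade RNA, tag proteins with ISG15, hold virus particles at membranes or feed back on the pathway. Many are also transcribed at a basal level without added interferon. STAT3 is activated by JAK kinases too, chiefly downstream of interleukin-6 and interleukin-10, and is active in many ABC lymphomas.

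The response element was read directly in the members' promoters, since it is the sequence that most of these genes share. RefSeq promoters of GRCh38.p14, 250 bases before to 50 bases after each annotated start, were on hand for 44 of the 53 members. This build differs from hg19, the build in the submitters' processing notes. The element was searched as GAAANNGAAA on either strand (TTTCNNTTTC on the other), and the gamma-activated site as TTCNNNGAA, which reads alike on both strands. Of the 44 members, 32 (72.7%) held the element, against 4.38% of all 27305 genes of the same table. The gamma-activated site was found for 12 of 44 (27.3%), against 9.38% of all genes. The stretches below are printed 5′ to 3′ on the gene's strand, end before an annotated start, and show the element in capitals with up to 20 bases on each side. The first 8 belong to members that were higher with STAT3 shRNA in OCI-LY10 and the last 5 to members that were lower.
IFIT1 (chr10:89392487-89392549, forward strand): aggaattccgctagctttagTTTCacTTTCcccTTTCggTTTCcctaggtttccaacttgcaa
IFIT3 (chr10:89332415-89332507, forward strand): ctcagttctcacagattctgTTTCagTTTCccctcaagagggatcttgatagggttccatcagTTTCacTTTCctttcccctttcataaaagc
ISG15 (chr1:1013364-1013419, forward strand): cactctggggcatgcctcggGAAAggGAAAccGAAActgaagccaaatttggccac
RTP4 (chr3:187368323-187368384, forward strand): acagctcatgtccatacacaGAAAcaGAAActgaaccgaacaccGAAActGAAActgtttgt
IFI6 (chr1:27672256-27672327, reverse strand): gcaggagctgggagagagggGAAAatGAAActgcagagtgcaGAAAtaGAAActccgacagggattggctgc
ISG20 (chr15:88638927-88638976, forward strand): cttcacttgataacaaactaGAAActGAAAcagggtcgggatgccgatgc
IFI44L (chr1:78620355-78620404, forward strand): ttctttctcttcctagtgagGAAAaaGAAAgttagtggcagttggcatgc
MX1 (chr21:41431834-41431883, forward strand): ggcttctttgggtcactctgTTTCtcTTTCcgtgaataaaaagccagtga
IFITM1 (chr11:313980-314029, forward strand): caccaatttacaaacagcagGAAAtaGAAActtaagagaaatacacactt
IFI27 (chr14:94110608-94110670, forward strand): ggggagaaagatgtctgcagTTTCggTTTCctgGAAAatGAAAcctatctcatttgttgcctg
GBP1 (chr1:89065306-89065355, reverse strand): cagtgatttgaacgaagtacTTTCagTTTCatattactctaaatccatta
CXCL10 (chr4:76023689-76023738, reverse strand): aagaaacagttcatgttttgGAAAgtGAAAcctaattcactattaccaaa
PARP9 (chr3:122564312-122564361, reverse strand): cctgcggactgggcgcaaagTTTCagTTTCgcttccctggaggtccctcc

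Only promoters with a match were printed, so every stretch holds the core whatever the direction of its gene, and no direction can be compared through it. IFIT1, IFIT3, ISG15, RTP4, IFI6 and IFI27 each carry a pair of matches within the stretch. In ISG15 the pair overlaps, sharing one GAAA block. The IFI27 pair lies on opposite strands. At least 2 matches in a single promoter were found for 16 members. By call in OCI-LY10, the element was matched in 12 of 14 members that were higher with STAT3 shRNA, 5 of 8 that were lower, 12 of 17 that did not pass the test and 3 of 5 that were not tested. ADAR, CMPK2, DDX58, HERC6, IFI35, OAS1, PSMB9, SAMD9L, SP100, SP110, UBE2L6 and XAF1 had no match in this window. DHX58, IFIT2, IFITM2, LY6E, MX2, OAS2, OASL, TRIM22 and USP18 were not searched. A match is a string of letters and was not tested as a binding site.

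**Figure D1:**
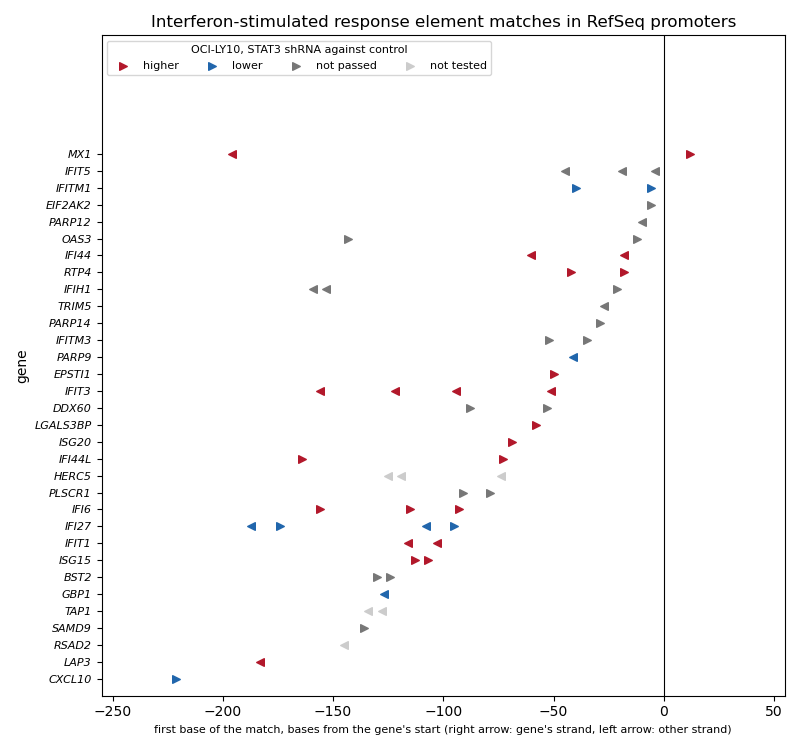
Position of each match to the interferon-stimulated response element, in bases from the annotated start (x axis), for the 32 members with a match (y axis); the arrow gives the strand and the colour the call for STAT3 shRNA against control in OCI-LY10. A gene with several annotated starts has its matches drawn once for each start, and matches lie from 221 bases before a start (CXCL10) to 12 bases after one (MX1).

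The libraries differed in ways that touch every comparison below. Deposited FPKM values (fragments per kilobase of transcript, scaled to the fragments of the library) summed to between 905356 and 1382655 per library, and small RNA genes took between 22.5% and 58.1% of that sum. Relative sequencing depth in OCI-LY10, read from the lowest values, was 1.52 for the control and 0.73 for shRNA 16 when shRNA 10 is set to 1. Low values gave no clear step in TMD8, so its depth is unknown. The library labelled OCI-LY10 control shRNA stood apart from the other OCI-LY10 libraries. With small RNA genes left out, log2(FPKM + 1) of 23223 genes gave a Pearson's r of 0.938 and 0.939 between this library and the STAT3 shRNA libraries, and 0.975, 0.977 and 0.985 between it and the TMD8 columns. The STAT3 shRNA libraries correlated at 0.997 with each other and at 0.920 to 0.928 with the TMD8 columns. These values run across genes, which share a library and are not replicates, so no p is given. Whether its label is right was not tested, and all 24 calls against the control, with every direction drawn from it, hold only for the library so labelled. Results that rest on this library are given below beside others that leave it out.

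Marker genes moved with the same split. All 6 B cell markers stood at 1 FPKM or more in all 6 libraries, and all 6 T and NK cell and all 4 myeloid markers stayed under 1 FPKM. The pan-leukocyte gene PTPRC lay between 68.0 and 124 FPKM. Summed B cell markers reached 2298 and 2548 FPKM with STAT3 shRNA 10 and 16, 833 FPKM in the control library and 797 to 952 FPKM in TMD8. CD22 of that list went the other way, at 62.1 FPKM in the control against 23.0 and 29.3 FPKM with the STAT3 shRNAs. Summed plasma cell markers (SDC1, IRF4, PRDM1) were 74.8 and 81.7 FPKM with the STAT3 shRNAs, 424 FPKM in the control and 506 to 637 FPKM in TMD8. Summed epithelial markers were 34.8 FPKM in the control, where CDH1 gave 32.6 FPKM, 5.48 and 5.98 FPKM with the STAT3 shRNAs, and 19.3 to 20.7 FPKM in TMD8. EPCAM of that list was listed at 0 in the control and in TMD8 and stood at 4.39 FPKM with both STAT3 shRNAs. Summed fibroblast markers were 6.54 FPKM in the control, 0.110 and 0.0839 FPKM with the STAT3 shRNAs and 4.94 to 6.68 FPKM in TMD8. Summed endothelial markers were 0.120, 5.43 and 6.05 FPKM in the same order in OCI-LY10 and 0.2 to 0.461 FPKM in TMD8, with PECAM1 giving nearly all of them. TCL1A, a lymphoid oncogene, stood at 474 FPKM in the control and 590 to 600.2 FPKM in TMD8, but at 0.040 and 0.108 FPKM with the STAT3 shRNAs. STAT3 itself read 16.5 FPKM in the control, 11.1 and 10.6 FPKM with shRNA 10 and 16 (log2 change −0.56, SE 0.10, limma adjusted p = 0.0465), and 120.3, 24.3 and 22.5 FPKM in the TMD8 columns. The part that these differences between libraries play in the results below was not tested.

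Most of the set was transcribed in both lines. In all 6 libraries, 35 of the 53 members stood at 1 FPKM or more. The share of all genes at that level was not counted. Over all 53 members the median level was 8.31 FPKM in the OCI-LY10 control, 10.0 and 10.3 FPKM with STAT3 shRNA 10 and 16, and 3.47, 3.64 and 4.70 FPKM in the TMD8 columns. For the 46 members averaging 1 FPKM or more over the 6 libraries, medians in that order were 9.27, 11.6, 12.1, 6.11, 6.88 and 7.24 FPKM. All 11340 genes averaging 1 FPKM or more gave 10.4, 10.7, 10.7, 10.9, 11.2 and 11.1 FPKM. Some of the 46 passed that filter through OCI-LY10 alone. The highest single values were 139.8 FPKM for ISG20 and 133 FPKM for UBE2L6, both with STAT3 shRNA 16. At the other end, PSMB9 and TAP1 were listed at 0 in all 6 libraries, and 8 members were listed at 0 in at least 1. Interferon genes themselves were barely read: IFNA1, IFNA2 and IFNL1 were listed at 0 throughout, and IFNB1 and IFNG stayed at or below 0.074 FPKM.

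**Figure D2:**
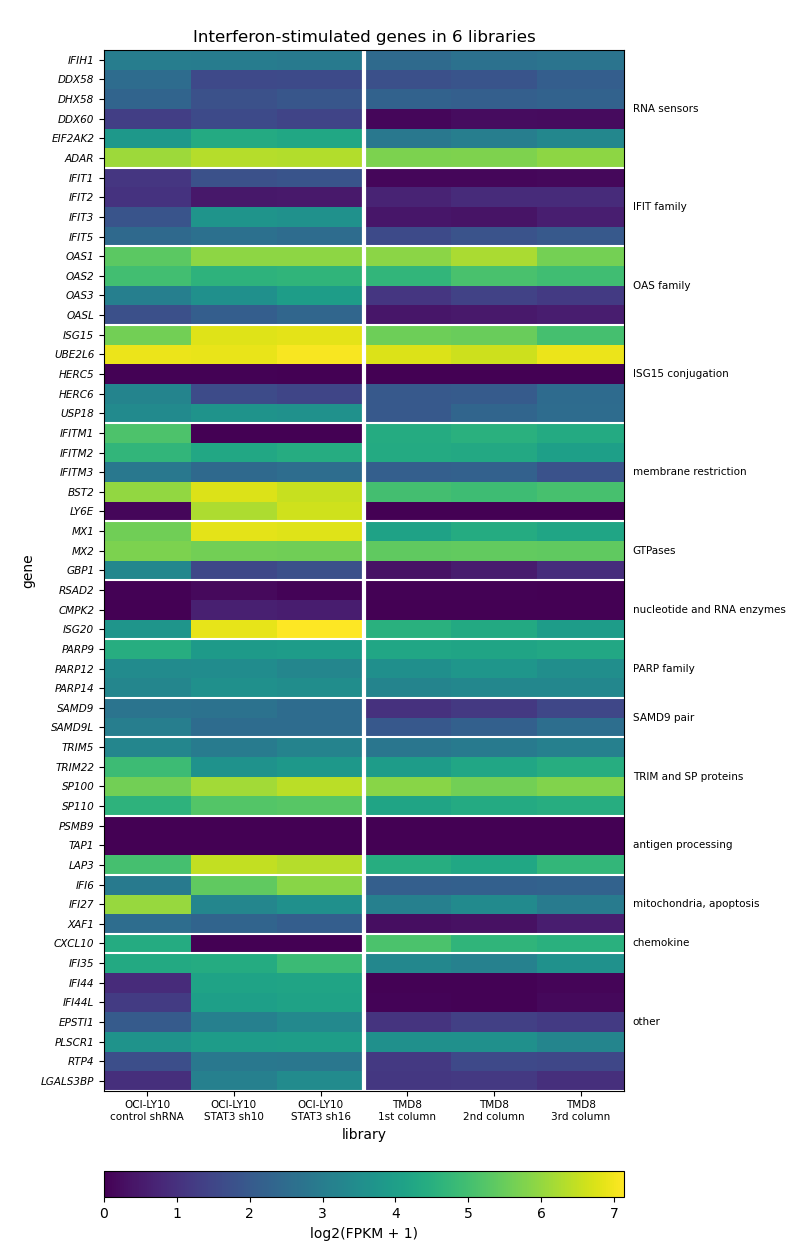
Heat map of log2(FPKM + 1) for the 53 members (rows, grouped by role) in the 6 libraries (columns), on a scale from 0 (dark) to about 7 (bright). ISG20, LY6E, IFI44 and IFI44L are brighter with both STAT3 shRNAs than elsewhere, and IFITM1 and CXCL10 show the reverse.

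In OCI-LY10, 15 members were higher and 9 lower with STAT3 shRNA than in the library labelled control shRNA. ISG20, IFI44, IFI44L, IFI6, LGALS3BP and LY6E rose most, and IFITM1, CXCL10, IFI27, HERC6 and GBP1 fell most. The test (limma on log2(FPKM + 1), two-sided, adjusted p below 0.05) took in the 47 members that averaged at least 1 FPKM. It left 23 of them not passed, and IFIT2, HERC5, RSAD2, CMPK2, PSMB9 and TAP1 were too low to test. Over all 11162 genes tested, 20.3% were higher and 17.4% lower, against 31.9% and 19.1% of the members tested. The median log2 change was 0.26 for the members and 0.06 for all genes tested. LY6E, IFI44 and LGALS3BP were under 1 FPKM in the control and passed the filter through the STAT3 shRNA libraries, and IFITM1 and CXCL10 passed it through the control alone. LY6E, IFITM1 and CXCL10 had to differ widely to be tested, and IFI44 and LGALS3BP, near 1 FPKM in the control, only slightly. The counts therefore describe the set and do not support a direction for it. Adding 1 FPKM before taking logs makes changes of low genes look smaller. In these bulk samples fewer expressing cells cannot be told apart from less RNA per cell. The control has 1 library, so the p-values rest on the spread between the STAT3 shRNA libraries alone, which limma moderates with that of other genes. IFITM1 and CXCL10, listed at 0 in both STAT3 shRNA libraries, had no spread of their own. Their p-values rest on the variance taken from other genes.

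Of the 6 RNA sensors and effectors that read foreign RNA, 1 passed the test. DDX58 encodes RIG-I, a sensor of viral RNA ends. It read 4.75 FPKM in the control and 1.97 and 2.07 FPKM with shRNA 10 and 16, a log2 change of −0.93 (SE 0.10, limma adjusted p = 0.0215). Its TMD8 columns, at 2.35, 2.61 and 3.39 FPKM, lay between the STAT3 shRNA and the control values. ADAR, the RNA-editing enzyme that keeps the cell's own double-stranded RNA from being sensed, was the highest of the group. It stood at 66.6 FPKM in the control, 80.7 and 78.9 FPKM with the STAT3 shRNAs, and 51.8, 52.9 and 60.1 FPKM in TMD8. The 4 others, IFIH1 (MDA5), DHX58 (LGP2), DDX60 and the translation-blocking kinase EIF2AK2 (PKR), did not pass the test. DDX60 read 1.49, 2.02 and 1.78 FPKM in OCI-LY10 and 0.0989, 0.188 and 0.162 FPKM in TMD8, so every TMD8 column lay below every OCI-LY10 library. EIF2AK2 came nearest to the threshold, at 13.1 FPKM against 19.5 and 17.9 FPKM (limma adjusted p = 0.0663).

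IFIT proteins bind viral RNA caps and ends and hinder its translation, and 2 of the 4 passed the test, both higher with STAT3 shRNA. IFIT1 read 1.18 FPKM in the control, 2.44 and 2.59 FPKM with shRNA 10 and 16, and 0.0993, 0.0907 and 0.12 FPKM in the TMD8 columns. Its log2 change in OCI-LY10 was 0.69 (SE 0.09, limma adjusted p = 0.0301). IFIT3, the partner that stabilises IFIT1, moved further, from 2.61 FPKM to 11.9 and 11.3 FPKM (log2 change 1.80, SE 0.11, limma adjusted p = 0.0120). TMD8 columns held IFIT3 at 0.36, 0.293 and 0.511 FPKM, so both genes followed the order STAT3 shRNA, control, TMD8, with no overlap. IFIT2 went the other way in OCI-LY10, at 1.08 FPKM in the control and 0.372 and 0.392 FPKM with the STAT3 shRNAs, but was too low to test. IFIT5 did not pass and kept between 2.03 and 5.23 FPKM in all libraries.

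Oligoadenylate synthetases make the second messenger that switches on RNase L, and 1 of the 4 genes passed the test. OAS1 stood at 39.3 FPKM in the control and 59.6 and 60.0 FPKM with shRNA 10 and 16 (log2 change 0.59, SE 0.08, limma adjusted p = 0.0316). Its TMD8 columns, at 59.1, 73.7 and 48.9 FPKM, were all above the control and lay around the STAT3 shRNA values. OAS3, the largest protein of the family, was lower in TMD8. It read 7.54 FPKM in the control and 11.0 and 14.7 FPKM with the STAT3 shRNAs, which did not pass the test (limma adjusted p = 0.118), and 1.18, 1.65 and 1.33 FPKM in TMD8. OASL read 2.37 FPKM in the control and 3.38 and 4.08 FPKM with the STAT3 shRNAs, and did not pass (limma adjusted p = 0.102). It stood at 0.351, 0.398 and 0.489 FPKM in the TMD8 columns. OAS2 did not pass.

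ISG15 is a ubiquitin-like protein that is attached to targets by UBE2L6 and HERC5 and removed by USP18. ISG15 itself read 47.7 FPKM in the control, 109 and 114 FPKM with shRNA 10 and 16, and 46.7, 44.4 and 32.0 FPKM in TMD8. It rose with a log2 change of 1.21 (SE 0.09, limma adjusted p = 0.0155), and the control lay beside the TMD8 columns. UBE2L6, the conjugating enzyme and the most abundant member of this group, differed little among libraries, at 122, 119 and 133 FPKM in OCI-LY10 and 108, 94.8 and 121 FPKM in TMD8. HERC5, the main ISG15 ligase in human cells, stayed at or below 0.0284 FPKM and was listed at 0 in 4 of the 6 libraries. Its relative HERC6 fell from 8.31 FPKM to 2.08 and 1.80 FPKM (log2 change −1.66, SE 0.12, limma adjusted p = 0.0148), with TMD8 at 2.99, 3.13 and 4.60 FPKM. USP18 did not pass, and was at least 9.72 FPKM in each OCI-LY10 library and at most 4.70 FPKM in each TMD8 column.

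Membrane restriction factors split furthest. IFITM1, which blocks virus entry at the cell surface, stood at 34.3 FPKM in the control and 20.1, 22.1 and 19.6 FPKM in TMD8, and was listed at 0 with both STAT3 shRNAs (limma adjusted p = 0.00676). No fold is given against values listed at 0. Its close relatives IFITM2 and IFITM3, which act in endosomes and whose transcripts are so alike that reads can be split between them, did not pass. IFITM2 read 24.9, 18.4 and 20.6 FPKM in OCI-LY10 and 15.2 to 19.7 FPKM in TMD8. LY6E, a membrane-anchored protein that alters virus entry, showed the opposite pattern to IFITM1. It was at 0.0958 FPKM in the control, 76.1 and 97.3 FPKM with shRNA 10 and 16 (log2 change 6.31, SE 0.21, limma adjusted p = 0.00750), and listed at 0 in all 3 TMD8 columns. BST2 (tetherin), which holds budding virus at the membrane, read 61.7 FPKM in the control and 108 and 91.3 FPKM with the STAT3 shRNAs, a difference that missed the threshold (limma adjusted p = 0.0646). TMD8 had it lower, at 30.9, 29.2 and 32.4 FPKM.

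Interferon-induced GTPases divided into one of each call. MX1, which traps viral nucleocapsids in the cytoplasm, rose from 47.3 FPKM to 114 and 110.0 FPKM (log2 change 1.23, SE 0.09, limma adjusted p = 0.0146), and read 16.4, 20.0 and 17.5 FPKM in TMD8. GBP1, a guanylate-binding protein that is a classic target of interferon gamma, fell from 8.81 FPKM to 1.90 and 2.38 FPKM (log2 change −1.65, SE 0.15, limma adjusted p = 0.0189). TMD8 columns had GBP1 at 0.268, 0.444 and 0.915 FPKM, below every OCI-LY10 library. MX2, which acts at the nuclear pore, stayed within 46.8 to 51.7 FPKM in OCI-LY10 and 41.0 to 41.6 FPKM in TMD8.

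Among enzymes acting on nucleotides and RNA, ISG20 was the only tested gene. This exonuclease read 12.3 FPKM in the control, 116 and 139.8 FPKM with shRNA 10 and 16, and 22.2, 19.0 and 14.3 FPKM in TMD8. Its log2 change of 3.28 (SE 0.16, limma adjusted p = 0.0102) put the STAT3 shRNA mean, 128 FPKM ± 16.7 (SD, n = 2), at 10.5 times the control. Control and TMD8 columns were close for ISG20, and both STAT3 shRNA libraries stood clear above them. RSAD2 (viperin) and CMPK2, neighbouring genes whose products make and supply a chain-terminating nucleotide, were nearly silent. RSAD2 reached at most 0.128 FPKM. CMPK2 was at 0.555 and 0.493 FPKM with shRNA 10 and 16 and listed at 0 in the control and in TMD8.

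Of the PARP and SAMD9 genes, 1 in each group passed the test, both lower with STAT3 shRNA. PARP9, an ADP-ribosyltransferase family member that works with the ligase DTX3L, read 20.9 FPKM in the control, 13.9 and 14.3 FPKM with the STAT3 shRNAs, and 17.5, 16.9 and 18.5 FPKM in TMD8. Its log2 change was −0.53 (SE 0.10, limma adjusted p = 0.0450). SAMD9L, a growth-restraining relative of SAMD9, fell from 7.37 FPKM to 4.80 and 4.78 FPKM (log2 change −0.53, SE 0.10, limma adjusted p = 0.0481). Its TMD8 columns, at 2.90, 3.52 and 5.03 FPKM, overlapped the STAT3 shRNA values. PARP12, PARP14 and SAMD9 did not pass. SAMD9 stood at 4.71 to 5.67 FPKM in OCI-LY10 and 1.01 to 1.87 FPKM in TMD8.

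TRIM and SP proteins of nuclear and cytoplasmic bodies went both ways. TRIM22, a ligase that restricts virus transcription, fell from 28.6 FPKM to 11.5 and 13.0 FPKM (log2 change −1.16, SE 0.13, limma adjusted p = 0.0226). Its TMD8 columns at 14.3, 17.8 and 20.7 FPKM lay between the STAT3 shRNA and control values. SP110 rose from 23.4 FPKM to 36.8 and 37.9 FPKM (log2 change 0.65, SE 0.09, limma adjusted p = 0.0304), with TMD8 at 16.9, 19.5 and 20.7 FPKM. SP100, the body component at the highest level, read 47.7 FPKM in the control and 69.3 and 83.3 FPKM with the STAT3 shRNAs (limma adjusted p = 0.0734), and 56.9, 47.7 and 54.6 FPKM in TMD8. TRIM5 did not pass.

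Genes of antigen processing could be followed through LAP3 alone. This aminopeptidase rose from 31.9 FPKM to 88.7 and 79.5 FPKM (log2 change 1.37, SE 0.12, limma adjusted p = 0.0177), against 20.9, 18.0 and 25.7 FPKM in TMD8. PSMB9, an immunoproteasome subunit, and TAP1, a subunit of the peptide transporter, are neighbours in the major histocompatibility complex and were listed at 0 in all 6 libraries. So were PSMB8 and TAP2 beside them, and HLA-DRA of the same complex stayed at or below 0.041 FPKM. Yet CD74, the class II chaperone encoded elsewhere, stood between 956 and 1881 FPKM, and B2M between 792 and 1521 FPKM. A value of 0 can be a failed estimate: RPS18, a ribosomal protein gene that every cell uses and that also lies in the complex, was listed at 0 in all 6 libraries as well.

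Genes linked to mitochondria and apoptosis went both ways. IFI6, an antiviral membrane protein, rose from 6.69 FPKM to 41.2 and 57.2 FPKM (log2 change 2.69, SE 0.26, limma adjusted p = 0.0203), and read 3.47, 3.53 and 3.77 FPKM in TMD8. IFI27, a small protein of the same family, did the reverse. It fell from 64.7 FPKM in the control to 8.75 and 11.1 FPKM (log2 change −2.60, SE 0.19, limma adjusted p = 0.0148). Here the TMD8 columns, at 7.60, 9.60 and 6.87 FPKM, lay with the STAT3 shRNA libraries and far below the control. XAF1, a pro-apoptotic antagonist of XIAP, did not pass, and read 3.38 to 4.84 FPKM in OCI-LY10 against 0.21 to 0.49 FPKM in TMD8.

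CXCL10, a chemokine that draws activated T cells, followed IFITM1. It stood at 20.0 FPKM in the control and 33.8, 24.3 and 21.9 FPKM in TMD8, and was listed at 0 with both STAT3 shRNAs (limma adjusted p = 0.00676).

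Of the 7 remaining members, 5 passed the test, all of them higher with STAT3 shRNA. IFI44 and IFI44L, neighbouring genes with cytoplasmic products, were near silent in TMD8, at 0.0261 to 0.0658 FPKM and 0.0361 to 0.115 FPKM. IFI44 read 0.853 FPKM in the OCI-LY10 control and 16.5 and 17.2 FPKM with shRNA 10 and 16 (log2 change 3.27, SE 0.10, limma adjusted p = 0.00733). IFI44L read 1.37 FPKM and then 15.3 and 16.3 FPKM (log2 change 2.82, SE 0.11, limma adjusted p = 0.00823). For both genes the control lay between the STAT3 shRNA libraries and TMD8 and overlapped neither. LGALS3BP, a secreted galectin-3 ligand, rose from 0.962 FPKM to 7.70 and 9.94 FPKM (log2 change 2.31, SE 0.20, limma adjusted p = 0.0180), with TMD8 at 1.21, 1.26 and 0.95 FPKM. EPSTI1 rose from 3.13 FPKM to 7.70 and 9.25 FPKM (log2 change 1.19, SE 0.16, limma adjusted p = 0.0299), with TMD8 at 1.12, 1.55 and 1.30 FPKM. RTP4, a receptor-transporting protein, rose from 2.30 FPKM to 6.19 and 6.07 FPKM (log2 change 1.11, SE 0.10, limma adjusted p = 0.0184), with TMD8 at 1.27, 2.00 and 1.86 FPKM. IFI35 and PLSCR1 did not pass. IFI35, the highest of this group, read 19.1, 20.1 and 28.4 FPKM in OCI-LY10 and 8.83, 7.81 and 11.3 FPKM in TMD8.

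**Figure D3:**
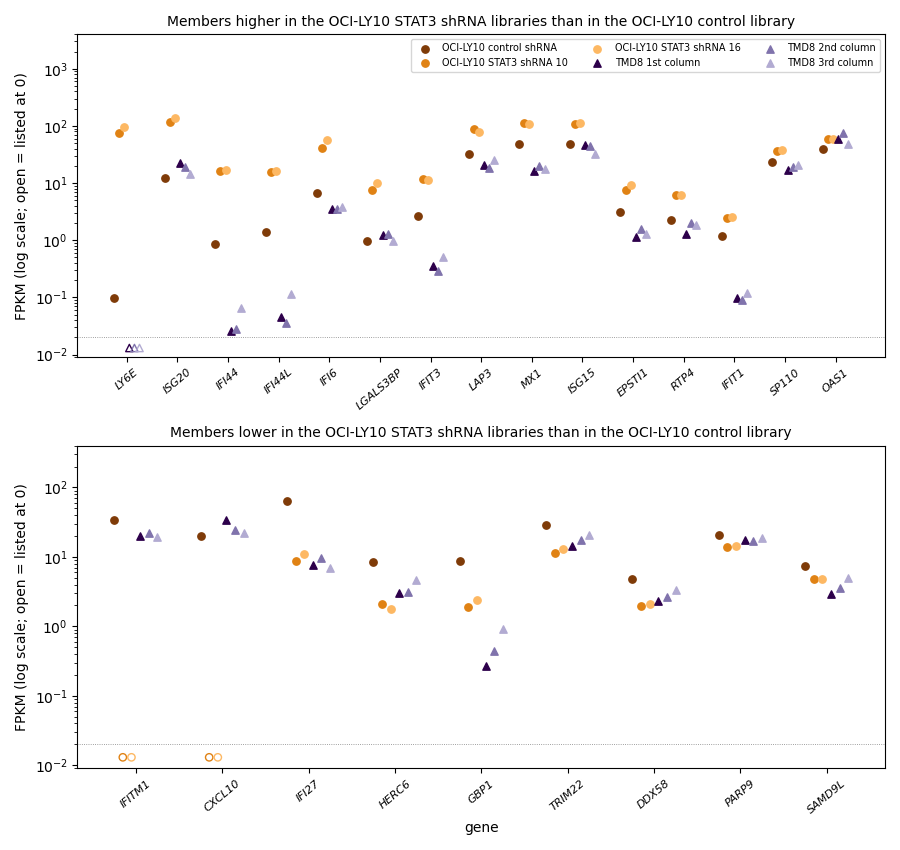
FPKM (log scale) of the 15 members that were higher and the 9 that were lower with STAT3 shRNA than in the control library of OCI-LY10, with 1 point for each library; circles are OCI-LY10, triangles TMD8, and open symbols under the dotted line are values listed at 0. The test that chose these members sets the distance from the control against the spread between STAT3 shRNA 10 and 16. That those points lie close together and apart from the control therefore follows from the choice. TMD8 lies near the control for some genes (ISG15, ISG20) and far from it for others (IFI27, GBP1).

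Both hairpins gave similar values for the members, as for most genes. Counting without a test, 15 members exceeded the control 1.5-fold or more with both STAT3 shRNAs, on FPKM + 1, against 20.1% of all genes tested. Another 7 lay 1.5-fold or more below it with both, against 17.2% of all genes. Those 7 are the members that fell in the limma fit apart from PARP9 and SAMD9L. Both shRNAs are read against the same control library, so these counts are not independent of each other. Between shRNA 16 and shRNA 10, a comparison that leaves the control out, 0 of 45 members lay 1.5-fold or more above and 0 below, against 2.68% and 1.11% of all genes. Both counts are near those shares. IFI35 and IFI6 differed most, at 0.48 and 0.46 on the log2 scale. With 1 library each there is no test of that difference. Without the filter on low values, limma no longer called IFIT1, IFI6, EPSTI1, LGALS3BP, DDX58, GBP1, PARP9, SAMD9L or TRIM22 (adjusted p from 0.0510 to 0.0752). In that fit IFIT2 was lower (limma adjusted p = 0.0368) and CMPK2 higher (limma adjusted p = 0.0434). Without small RNA genes limma called BST2 (adjusted p = 0.0290), SP100 (adjusted p = 0.0346) and EIF2AK2 (adjusted p = 0.0434) as well.

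Within TMD8, the share of members differing between columns was near that of all genes. Of 38 members averaging 1 FPKM or more, 3 differed at least 1.5-fold between the highest and the lowest column, against 11.5% of all genes. These were CXCL10 and ISG20, both highest in the first column and lowest in the third, and SAMD9L, lowest in the first and highest in the third. The median log2 range over the columns was 0.35 for the members and 0.28 for all genes tested. The largest ratio of any tested member on FPKM + 1 was 1.54. Leaving out the first or the third column brought the count to 0, while leaving out the second kept it at 3. The third column held the highest value for 19 of the 38 members (all genes 44.8%), the second for 13 (27.0%) and the first for 6 (28.3%). STAT3, at 120.3 FPKM in the first column and 24.3 and 22.5 FPKM in the others, spanned a wider ratio than any member tested. With unnamed columns, no difference between them can be tied to an shRNA.

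Between the lines, levels in TMD8 were lower for much of the set. Of the 46 members that averaged 1 FPKM or more across the 3 TMD8 columns and the STAT3 shRNA libraries of OCI-LY10, 23 lay at least 1.5-fold lower in every TMD8 column than in both libraries, against 17.2% of all genes. Only CXCL10 and IFITM1 lay above by that rule, 2 of 46, against 20.8% of all genes. Both were listed at 0 in the STAT3 shRNA libraries and passed the filter through TMD8 alone. The median difference was −0.83 on the log2 scale for the members and 0.01 for all genes. Among the 23, 8 passed the filter through OCI-LY10 alone. GBP1, IFIT1, IFIT3, OASL, XAF1, IFI44 and IFI44L were under 1 FPKM in each TMD8 column, and LY6E was listed at 0 there. The tables were made separately and no test was run across them.

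Set against the OCI-LY10 control library, TMD8 was again lower for part of the set. Of 40 members tested, 14 lay at least 1.5-fold lower in every TMD8 column, against 6.87% of all genes, and 0 lay higher, against 9.93%. The 14 were BST2, EPSTI1, GBP1, HERC6, IFI27, IFI35, IFI6, IFITM1, IFITM3, MX1, OAS3, SAMD9, USP18 and XAF1. Without the third TMD8 column 22 members lay lower, against 11.5% of all genes, and 1 lay higher, against 15.5%. The median difference was −0.49 on the log2 scale for the members and 0.07 for all genes. Of the 14, 2 passed the filter through OCI-LY10 alone. Across the whole transcriptome this library was nearer to TMD8 than to the STAT3 shRNA libraries. For 46 members averaging 1 FPKM or more over the 6 libraries, any excess over the TMD8 median was counted. In the control library 39 of them (84.8%) were above it, against 45.0% of all genes. For the mean of the STAT3 shRNA libraries the share was 80.4%, against 48.7%. GBP1, IFIT1, IFIT3, OASL, XAF1, IFI44, IFI44L and LY6E were under 1 FPKM in each TMD8 column. They passed that filter through OCI-LY10 alone, so these shares do not support a direction for the set. Both comparisons use the same TMD8 columns.

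**Figure D4:**
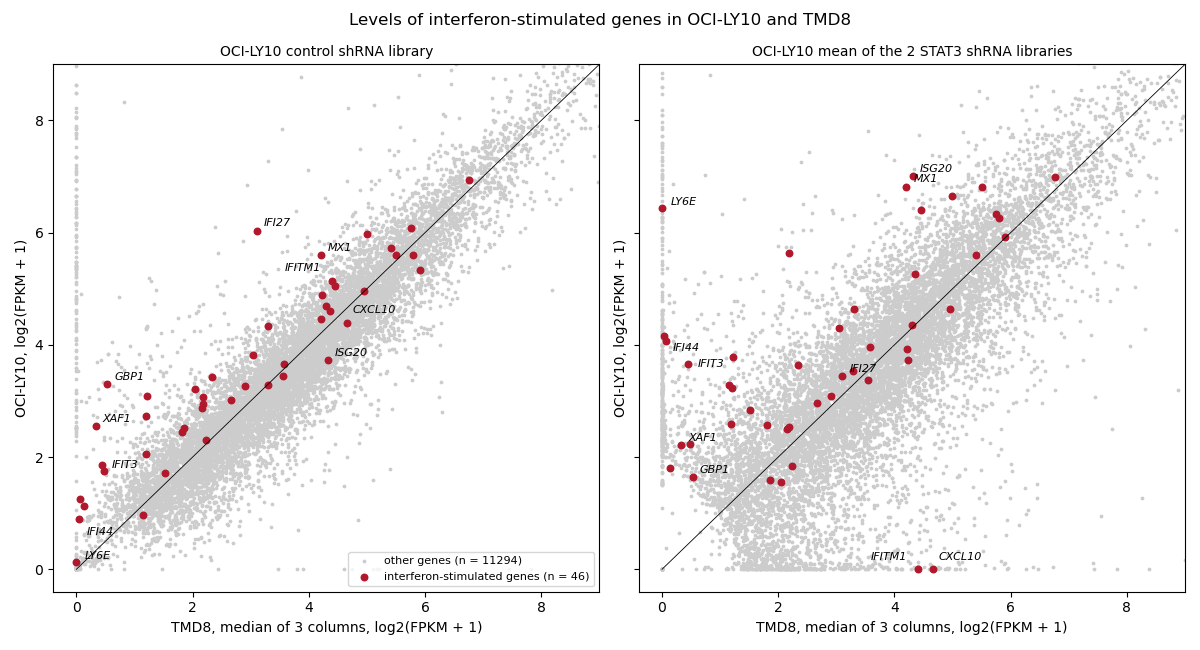
Levels in OCI-LY10 (y axis, log2(FPKM + 1)) against the median of the 3 TMD8 columns (x axis, same scale), for the control library (left) and the mean of the STAT3 shRNA libraries (right); red points are 46 members, grey points other genes, and the line marks equal levels. Most red points lie above the line in both panels, 39 of 46 on the left, counting any excess. Some of these passed the filter through OCI-LY10 alone. The 218 genes beyond 9 on any axis, none of them members, are not drawn.

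**Figure D5:**
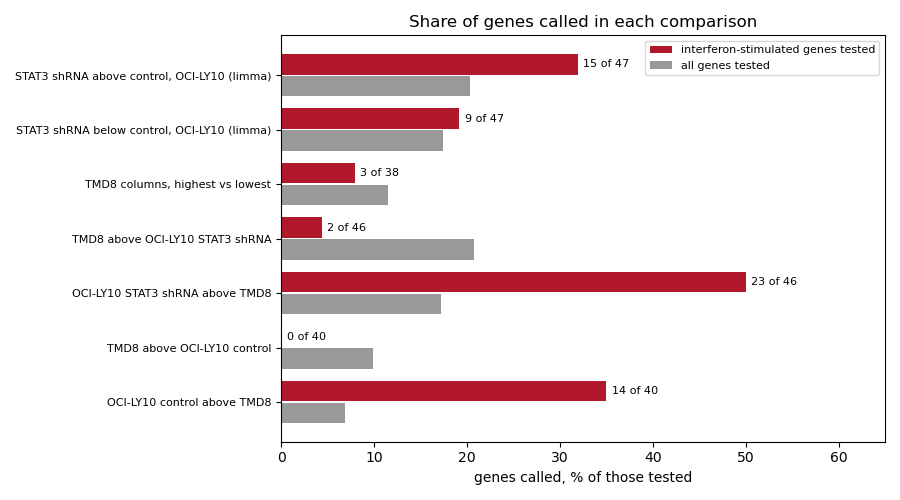
Share of genes called in each comparison (x axis, percent of those tested), for the members (red, with their count) and for all genes tested (grey). The widest gap is for members lower in TMD8 than in the OCI-LY10 STAT3 shRNA libraries, 23 of 46 against 17.2%. Of these 23, 8 passed the filter through OCI-LY10 alone, where they are high, so the gap does not support a direction for the set.

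Genes that carry the interferon signal were read from a list of 35 outside the set. In OCI-LY10, 7 of them were lower with STAT3 shRNA, 19 did not pass and 8 were not tested. Over all genes tested, 17.4% were lower. STAT2 and IRF9, subunits of ISGF3, did not pass. STAT2 read 14.0, 15.0 and 16.5 FPKM in OCI-LY10, and IRF9 17.5, 20.2 and 19.1 FPKM, against 9.39 to 11.0 FPKM in TMD8 for IRF9. The genes that fell were the receptor subunits IFNAR2 and IFNGR2, the kinase JAK2, the RNA sensor TLR7 and the inhibitors SOCS1, SOCS3 and PTPN2.

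SOCS3, a feedback inhibitor that STAT3 is known to induce, read 27.3 FPKM in the control, 1.23 and 1.5 FPKM with shRNA 10 and 16 (log2 change −3.59, SE 0.13, limma adjusted p = 0.00773), and 15.5, 16.6 and 15.5 FPKM in TMD8. JAK2 fell from 11.2 FPKM to 1.36 and 1.22 FPKM (log2 change −2.41, limma adjusted p = 0.00894), with 13.2, 13.7 and 15.0 FPKM in TMD8. PTPN2, a phosphatase that acts on JAK1, fell from 48.9 FPKM to 13.9 and 15.3 FPKM, with 71.4 to 80.3 FPKM in TMD8. In these 3 genes the control and every TMD8 column lay above both STAT3 shRNA libraries. The same held for the other genes of the list that fell, IFNAR2, IFNGR2, TLR7 and SOCS1. For the control this follows from their call, and the share of all genes in this order was not counted. By the rule between lines, 10 of 28 pathway genes were higher in TMD8 than in both STAT3 shRNA libraries, against 20.8% of all genes. IRF7, IRF9 and MYD88 were among those lower (17.2% of all genes). Against the control library 3 were higher (IRF5, SOCS1 and TLR7) and 3 lower (IRF9, MYD88 and SOCS3). Over all genes those shares were 9.93% and 6.87%, and the counts describe the list alone.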

How the data were processed

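Expression was measured by RNA-seq with a TruSeq kit, per the labels' protocols. The authors deposited FPKM values, 1 per gene and library, in a table for each line (25277 rows each). The submitters' processing notes name Bowtie2, TopHat and the build hg19 with no version and no role. Which tool gave the FPKM, from which annotation and with or without strand, is not given in the sources used here. FPKM is not a count, so depth is known only as a ratio between OCI-LY10 libraries and no counting interval is given. OCI-LY10 columns were matched to samples by name, and TMD8 columns were used by position.

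Values were set on log2(FPKM + 1), which understates changes of low genes. In OCI-LY10, the 11162 genes averaging 1 FPKM or more were fitted with limma 3.58.1 (R 4.3.3, moderated variances with a trend on the mean, Benjamini-Hochberg adjustment over all of them), with 1 residual and 1.64 prior degrees of freedom. The fit was tested on simulated data. Other comparisons are counts at a fold of 1.5 with no test. Values in every library, or for a few their range or upper limit, are given for members that passed the test, were listed at 0, or were the highest of their role. They are also given for members differing 1.5-fold between TMD8 columns or 4-fold between lines. That 4-fold rule, on FPKM + 1, set every TMD8 column against the control library or against both STAT3 shRNA libraries, and either was enough. Members described beyond that rule were chosen after their values were seen. The members and lists were chosen with earlier results of these data known. One gene of the pathway list is not reported here. Other pseudocounts (0.1 and 5), filters, scalings, folds and left-out libraries were tried as alternatives.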

Additional observations from a re-analysis of the deposited data

How the results depend on the processing

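Of 102 counts of members recomputed under another setting, 89 were equal to the reported count or within 1.5 times of it. Each count has its direction set beforehand, so it could not reverse. Counts of 0, such as those between shRNA 16 and shRNA 10, are among the 89. The members lower with STAT3 shRNA (limma) fell from 9 of 47 to 5 of 51 without the filter on low values. With a filter of 5 FPKM, those at least 1.5-fold lower with both shRNAs fell from 7 to 4 (all genes 14.2%). A stricter filter also lowers the number of members tested, which is not given here for the counts by fold. Members differing between TMD8 columns numbered 8 with a pseudocount of 0.1, 0 with a pseudocount of 5 or a fold of 2, and 0 to 3 with 1 column left out. Members lower in TMD8 than in the STAT3 shRNA libraries numbered 14 with a filter of 5 FPKM (all genes 16.2%). With any 1 library left out they numbered 22 to 25 (all genes 18.4% to 20.9%). Against the control, members lower in TMD8 numbered 8 with a pseudocount of 5, 6 with a filter of 5 FPKM, 6 with a fold of 2, and 16 to 22 with 1 column left out, and members higher 0 to 1. Leaving out a STAT3 shRNA library from the counts by fold was chosen after seeing the data. Of 30 members fitted by name, 11 lost or gained a call under some setting, and no called member changed sign. UBE2L6, which was not called, went from 0.04 on the log2 scale to −0.03 with median-of-ratios scaling, quantile normalization or without shRNA 16.

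The control of OCI-LY10 has 1 library, so its spread is unobserved. Leaving out a STAT3 shRNA library leaves 1 library against 1 and no test. SAMD9L also missed the threshold with a pseudocount of 0.1 (limma adjusted p = 0.0584). No paired analysis was possible because the TMD8 columns carry no name and OCI-LY10 has 1 library for each shRNA.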
